A study of Mus musculus with 5 samples.

Results

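Etv1 encodes an ETS family transcription factor of the PEA3 group, and its array signal differed more between fat cells kept with and without myeloma cells than that of any other probe set in the series. Etv1 was examined here together with 9 genes that are read as output of the ERK kinase pathway: the sister factors Etv4 and Etv5, the phosphatase genes Dusp6 and Dusp4, the inhibitor genes Spry1, Spry2, Spry4 and Spred1, and the immediate early gene Egr1. These 10 genes, of 19505 with a gene symbol on the array, were listed by name. Etv1 was chosen by its measured difference between the groups, so that difference is given as a description without a test, and the other 9 joined it for their pathway. Each of the 10 had a single probe set, so no choice between probe sets was needed.

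The 5 samples were cultures of 3T3-L1, a mouse preadipocyte line that turns into fat cells under hormones. After 4 days in basal medium all 5 were differentiated for 4 days with IBMX (0.5 mM), dexamethasone (1 µM) and insulin (5 µg/mL), then spent 2 days with insulin and 1 day in basal medium. The 3 exposed samples then shared RPMI-1640 with 10% fetal bovine serum and antibiotics for 72 h with human MM.1S multiple myeloma cells, held behind a membrane with pores of 0.4 µm. The 2 control samples spent that time in the same medium without myeloma cells. The labels do not say whether replicates were separate cultures, so the spread behind each p-value may be technical. One cell line stands for all fat cells here, and the arrays carry probes for mouse genes.

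In the ERK pathway, growth factors bind receptor tyrosine kinases, which switch on RAS and then the kinases RAF, MEK and ERK. Active ERK raises transcription of immediate early genes such as Egr1 and of the PEA3 factors, partly by releasing them from the repressor Capicua. It also induces its own brakes: DUSP phosphatases remove phosphate from ERK, while Sprouty and Spred proteins act on the steps between receptor and RAF. In 3T3-L1 cells ERK signalling is best known from the early hours of differentiation. Transcript levels of these genes reflect past pathway activity only indirectly, and ERK phosphorylation was not measured.

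Values are log2 expression after RMA, 1 per probe set and array, so a difference of 1 is 2-fold. Array medians lay between 4.80 and 4.88. Of the 12 measured adipocyte markers 0 passed the test between groups, with a median difference of -0.025, and Adipoq, the adiponectin gene, read 11.39, 11.58 and 11.73 on exposed arrays, against 11.55 and 11.61 on control arrays. Of the 9 measured preadipocyte and fibroblast markers 8 were lower on exposed arrays in mean (median -0.11, 0 passing). The test called 0 of all 22206 probe sets, so 0 passing does not set any list here apart from the rest. In bulk RNA fewer cells of a type and less RNA per cell cannot be told apart.

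Every exposed array read higher for Etv1 than either control array did. Etv1 read 5.29, 5.24 and 5.71 on exposed arrays, against 4.58 and 3.72 on control arrays. The exposed arrays lay above the array medians and the control arrays below them. The group means were 5.42 ± 0.26 (SD, n = 3) with myeloma cells and 4.15 ± 0.61 (SD, n = 2) without. Their difference of 1.27 is a 2.40-fold higher signal with myeloma cells, the largest absolute difference among 22206 probe sets, of which 4 (0.018%) differed by more than 2-fold in either direction. The control arrays stood 0.86 apart, a gap exceeded by 1.96% of all probe sets, where the median gap was 0.16. The 6 exposed-with-control pairs therefore ranged from 0.66, for exposed array 2 with control array 1, to 2.00, for exposed array 3 with control array 2. Control array 2 accounts for much of the size: without it the difference was 0.83 (1.78-fold), and without control array 1 it was 1.70 (3.24-fold), in fits that had 1 control array left.

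**Figure D1:**
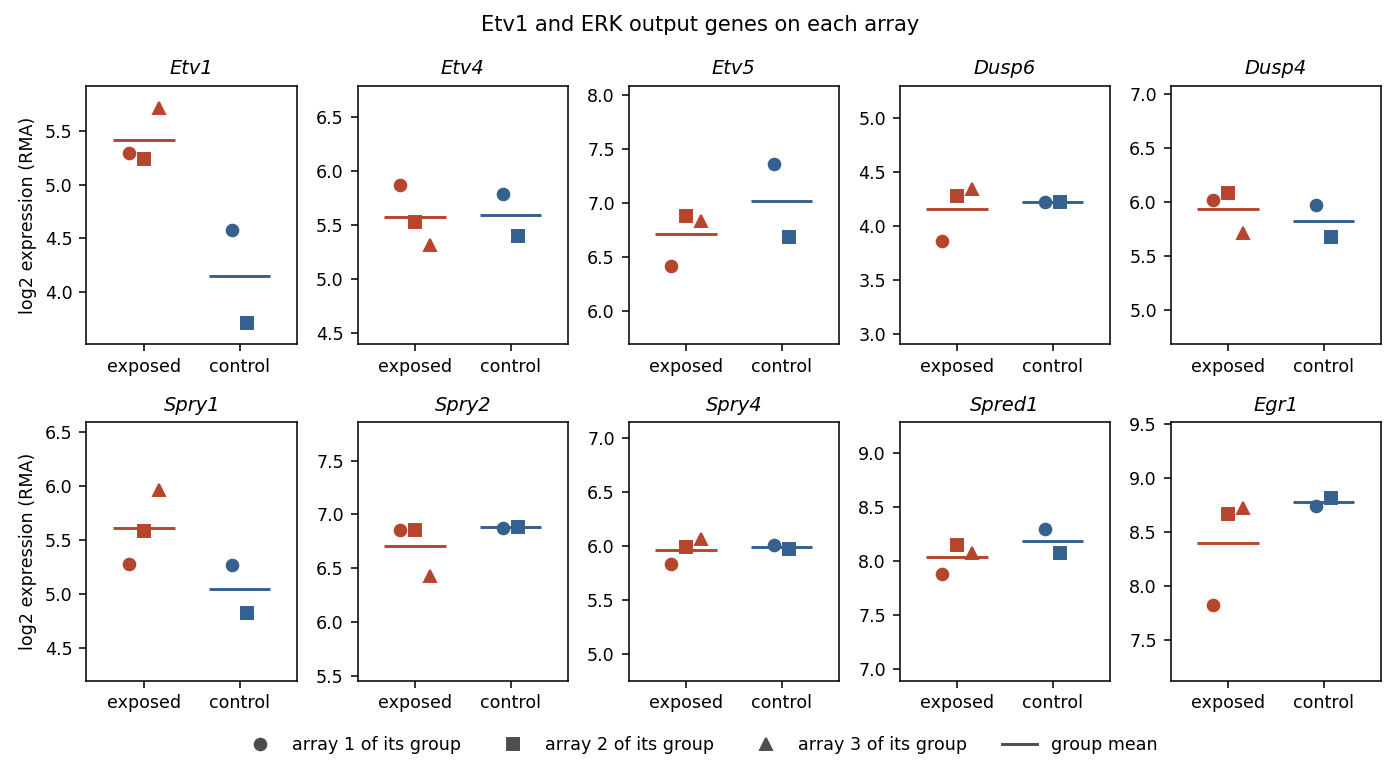
Log2 expression (RMA, vertical axis) of the 10 genes on the 3 exposed arrays (red, left) and the 2 control arrays (blue, right); each point is 1 array, lines are group means, and every panel spans the same log2 range. Etv1 is the 1 gene with a clear gap between the groups (0.66), while Spry1, Spry2 and Egr1 are separated by less than 0.03 and the other 6 overlap.

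The sister factors did not show this pattern. Etv4, which binds the same kind of DNA site, read 5.87, 5.53 and 5.31 on exposed arrays, against 5.79 and 5.39 on control arrays. Its groups overlapped fully, with a difference of -0.020 (95% interval -0.54 to 0.50, limma adjusted p 1.00). Etv5, the third PEA3 factor, read 6.41, 6.88 and 6.84 on exposed arrays, against 7.36 and 6.68 on control arrays. Control array 1 was the highest and exposed array 1 the lowest for Etv5, and the difference was -0.31 (-0.92 to 0.30, limma adjusted p 0.93). The 95% intervals of both excluded a 2-fold rise. Both differences had the opposite sign without control array 1, at 0.18 for Etv4 and 0.030 for Etv5.

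The ERK phosphatase genes overlapped between the groups. Dusp6, whose product removes phosphate from ERK in the cytoplasm, read 3.86, 4.28 and 4.34 on exposed arrays, against 4.22 and 4.22 on control arrays. Both control arrays held exactly the same value, and the mean was below the median level of all probe sets, where RMA compresses differences. The Dusp6 difference was -0.058 (-0.50 to 0.38, limma adjusted p 0.97). Dusp4, a nuclear phosphatase of ERK and related kinases, read 6.02, 6.08 and 5.71 on exposed arrays, against 5.97 and 5.67 on control arrays, a difference of 0.12 (-0.31 to 0.54, limma adjusted p 0.95). The sign of the Dusp6 difference turned without exposed array 1 (0.093) and that of Dusp4 without control array 2 (-0.032).

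Of the Sprouty and Spred genes, Spry1 came closest to Etv1 and did not pass the test. Spry1, an inhibitor of signalling from growth factor receptors to RAS, read 5.28, 5.59 and 5.96 on exposed arrays, against 5.27 and 4.83 on control arrays. All exposed arrays were above both control arrays, but exposed array 1 and control array 1 stood only 0.0075 apart. Its difference was 0.56, or 1.47-fold (-0.028 to 1.15 on the log2 scale, limma p 0.059, adjusted p 0.93), and its interval reached past 2-fold. As for Etv1, the highest array was exposed array 3 and the lowest control array 2, and the difference was 0.34 without control array 2 and 0.78 without control array 1.

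Spry2, a related inhibitor, read 6.85, 6.85 and 6.42 on exposed arrays, against 6.87 and 6.89 on control arrays. The groups were separated by 0.018, and exposed array 3 carried most of the difference of -0.17 (-0.59 to 0.25, limma adjusted p 0.93), which was -0.026 without it. Spry4 read 5.83, 5.99 and 6.07 on exposed arrays, against 6.01 and 5.97 on control arrays. Its difference of -0.029 had the narrowest interval of the 9 genes (-0.35 to 0.29, limma adjusted p 0.98). Spred1, which keeps the RAS inhibitor neurofibromin at the membrane, read 7.87, 8.15 and 8.08 on exposed arrays, against 8.30 and 8.08 on control arrays, a difference of -0.16 (-0.52 to 0.21, limma adjusted p 0.93) that was -0.043 without control array 1 and -0.27 without control array 2. The Spred1 groups overlapped, with exposed array 1 the lowest.

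Egr1, a zinc finger factor induced within minutes of ERK activation, was lower on 1 exposed array. It read 7.82, 8.67 and 8.72 on exposed arrays, against 8.75 and 8.82 on control arrays. Exposed array 1 stood apart from the other 4 arrays, which lay between 8.67 and 8.82, and the groups were otherwise separated by 0.027. The difference was -0.38 (-1.08 to 0.32, limma adjusted p 0.93) with all arrays and -0.090 without exposed array 1.

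Across the 9 genes other than Etv1, 2 were higher and 7 lower on exposed arrays in mean, with a median difference of -0.058 beside -0.00040 over all probe sets. limma called 0 of the 9, as it called 0% of all 22206 probe sets at an adjusted p under 0.05. At an unadjusted p under 0.05 there were also 0 of the 9, against 3.49% of all probe sets (1.82% higher and 1.68% lower). Spry1 went under that threshold in 3 of 12 alternatives, with array weights (p 0.042), with dim probe sets left out (p 0.0496) and without exposed array 1 (p 0.028), and the other 8 in none. For 7 of the 9 the interval excluded a 2-fold difference in either direction, the exceptions being Spry1 upwards and Egr1 downwards, and over all probe sets 92.9% had such an interval. Groups did not overlap for 1 of the 9 in the higher direction (8.5% of all probe sets) and for 2 in the lower direction (8.84%). Those separations were under 0.03, and after quantile normalization was repeated Etv1 alone of the 10 remained separated.

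**Figure D2:**
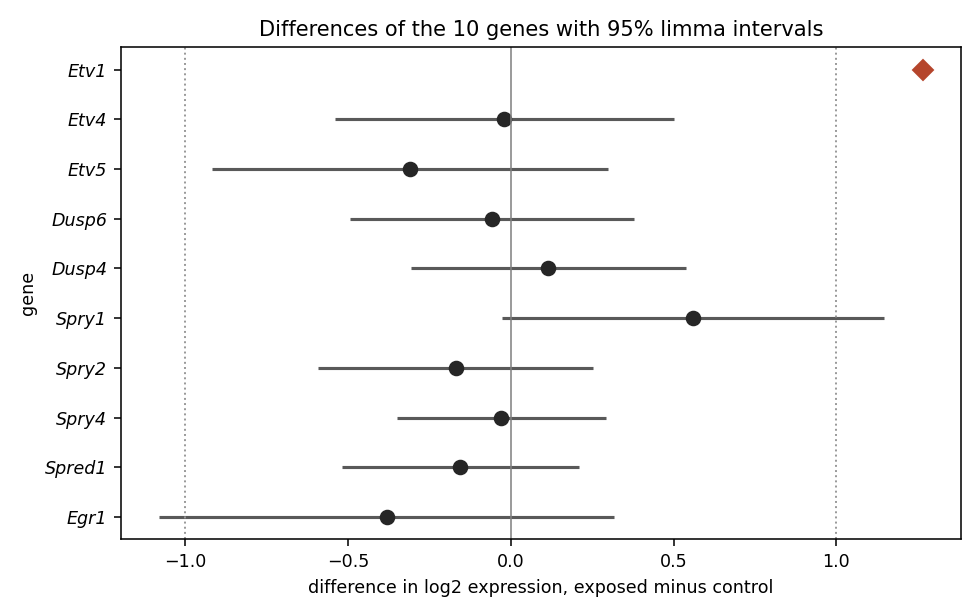
Difference in log2 expression, exposed minus control (horizontal axis), for the 10 genes; bars are 95% intervals from limma, dotted lines mark 2-fold, and Etv1 (diamond) has no interval because it was chosen for its difference. Etv1 stands at 1.27, Spry1 at 0.56, and the other 8 genes lie between -0.38 and 0.12.

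The 10 genes did not move as a block from array to array. Exposed array 1 held the lowest value of 5 of them (Etv5, Dusp6, Spry4, Spred1 and Egr1), while that array was lowest for 24.6% of all probe sets. Exposed array 3 held the highest value of 4 (Etv1, Dusp6, Spry1 and Spry4), against 24.6% of all probe sets. Control array 2 was lowest for Etv1, Dusp4 and Spry1, against 16.9% of all probe sets. Averaged over the 9 genes other than Etv1, the exposed arrays deviated by -0.16, 0.083 and 0.019 and the control arrays by 0.14 and -0.081, so the groups overlapped.

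**Figure D3:**
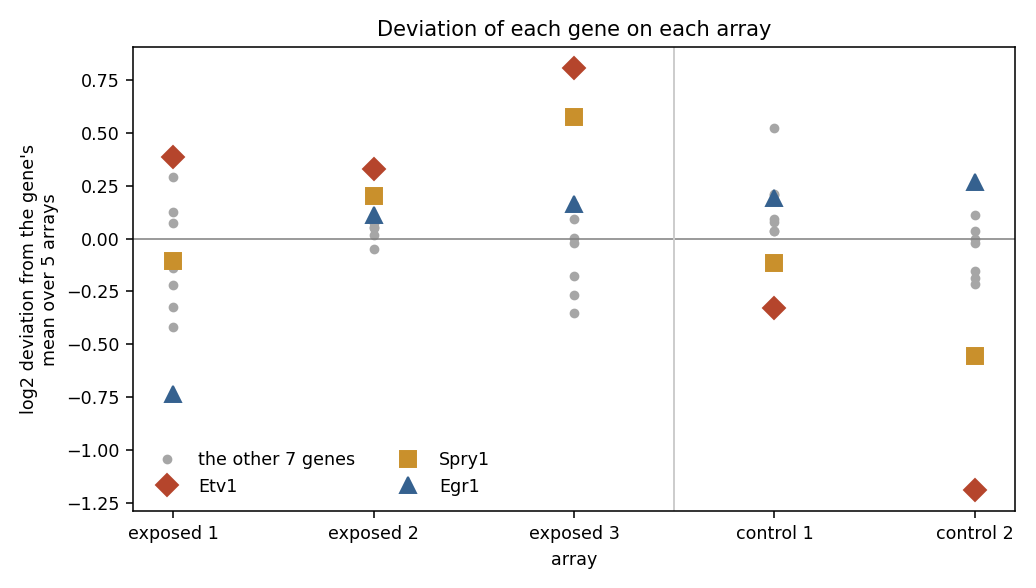
Deviation of each gene from its own mean over the 5 arrays (log2, vertical axis) on each array (horizontal axis), with exposed arrays left of control arrays. Etv1 and Spry1 are lowest on control array 2 and highest on exposed array 3, Egr1 is low on exposed array 1 alone (-0.73), and the other 7 genes scatter around 0.

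Likeness to Etv1 was measured as the root mean square difference between the deviations of a gene and those of Etv1 over the 5 arrays, so a small value means a similar course. Among 19504 other genes Spry1 ranked 45 with 0.39, where a gene that did not vary would have 0.70. The median over these genes was 0.71. Dusp4 had 0.66, and Spry4 had 0.70, the value of the flat course. Etv4 and Dusp6 (0.72 each), Spred1 (0.75), Etv5 (0.80), Spry2 (0.82) and Egr1 (0.91) were farther from Etv1 than a flat course. The 5 genes nearest to Etv1 were Rgs8 (0.26), Telo2 (0.27), Olfr1321 (0.30), Ascl2 (0.30) and Ttc12 (0.30), which include a regulator of G protein signalling, a cofactor of large kinases and an olfactory receptor. Rgs8 read 4.53, 4.46 and 4.98 on exposed arrays, against 4.39 and 3.44 on control arrays, with the same low control array 2, without which its difference was 0.27. All 5 had a group difference of 0.71 to 0.93, which the search for likeness itself brings about. None of the 5 was on the ERK pathway lists used below, but 5 of 19504 genes are too few for that absence to tell.

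Promoter sequence upstream of the starts annotated by RefSeq is shown for the gene that differed, the gene nearest to it among the 10, and Spry2 and Dusp6, whose windows hold the letters of a Capicua site. RefSeq windows of build GRCm38.p6 were found for 6 of the 10 genes. The 250 bases before each start are given on the gene's own strand, with motif matches in capitals.
Etv1, upstream start, chr12:38779832-38780081, plus strand: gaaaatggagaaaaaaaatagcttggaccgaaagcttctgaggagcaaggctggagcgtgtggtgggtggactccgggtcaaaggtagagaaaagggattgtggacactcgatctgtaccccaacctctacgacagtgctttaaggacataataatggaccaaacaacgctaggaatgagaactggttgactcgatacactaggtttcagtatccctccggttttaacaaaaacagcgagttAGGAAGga
Etv1, downstream start, chr12:38783461-38783710, plus strand: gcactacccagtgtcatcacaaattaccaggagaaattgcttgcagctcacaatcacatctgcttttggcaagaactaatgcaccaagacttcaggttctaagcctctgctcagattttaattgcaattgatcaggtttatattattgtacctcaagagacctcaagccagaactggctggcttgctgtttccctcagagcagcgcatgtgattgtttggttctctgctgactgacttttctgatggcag
Spry1, chr3:37639697-37639946, plus strand: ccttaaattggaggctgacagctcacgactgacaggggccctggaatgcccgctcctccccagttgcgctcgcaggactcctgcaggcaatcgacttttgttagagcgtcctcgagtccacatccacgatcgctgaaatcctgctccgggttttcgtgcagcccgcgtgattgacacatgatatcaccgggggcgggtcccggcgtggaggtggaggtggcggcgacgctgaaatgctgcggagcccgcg
Spry2, chr14:105896820-105897069, minus strand: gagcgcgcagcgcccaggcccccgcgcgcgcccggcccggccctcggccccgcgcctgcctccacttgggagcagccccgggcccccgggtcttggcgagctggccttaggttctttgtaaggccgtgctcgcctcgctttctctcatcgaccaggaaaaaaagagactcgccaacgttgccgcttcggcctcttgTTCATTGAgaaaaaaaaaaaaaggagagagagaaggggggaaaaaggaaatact
Dusp6, chr10:99262981-99263230, plus strand: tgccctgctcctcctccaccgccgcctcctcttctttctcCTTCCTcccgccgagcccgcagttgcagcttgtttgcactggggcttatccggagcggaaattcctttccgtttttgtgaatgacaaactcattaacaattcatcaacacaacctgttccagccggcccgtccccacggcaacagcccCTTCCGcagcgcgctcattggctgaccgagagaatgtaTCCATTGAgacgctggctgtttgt

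The letters searched, on both strands, were the Capicua octamers TGAATGAA, TGAATGGA, TCAATGAA and TCAATGGA and the ETS hexamers CGGAAG and AGGAAG. A Capicua octamer was found in 3.19% of 32851 windows of this length and an ETS hexamer in 39.2%. Spry2 held TCAATGAA on the opposite strand from base -54 to -47, counted from the start, and Dusp6 held TCAATGGA on the opposite strand from -24 to -17. Dusp6 also held ETS hexamers from -210 to -205 and from -62 to -57, and the upstream Etv1 window held AGGAAG from -8 to -3. The downstream Etv1 window and the Spry1 window held none of these letters. Of the windows not printed, both Etv5 windows held neither motif and the Spred1 window held 1 ETS hexamer. The data do not tell which Etv1 start was in use, and the matches are a description of sequence.

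Upstream of ERK, no ligand or receptor gene passed the test, as no probe set of the series did. Of 17 measured FGF ligand genes 10 were higher and 7 lower on exposed arrays (median 0.027). Fgf17 read 2.93, 2.86 and 2.86 on exposed arrays, against 2.24 and 2.18 on control arrays, a difference of 0.67 (limma p 0.0012, adjusted p 0.93) that kept an unadjusted p under 0.05 in all 11 alternatives that include this dim gene. Fgf17 was 1 of 17 at an unadjusted p under 0.05 in the higher direction, where 1.82% of all probe sets lay. It was named because it differed most in its list. Fgf9, also dim, differed by 0.50, or by 0.24 without control array 1 and 0.77 without control array 2. Of 12 EGF family, PDGF and HGF ligand genes 5 were higher and 7 lower (median -0.0033), with Btc at 0.34 and Tgfa at 0.30. Btc was at 0.096 without control array 1 and 0.59 without control array 2, and Tgfa at 0.57 and 0.040. Of 14 receptor tyrosine kinase genes 6 were higher and 8 lower (median -0.029). Erbb3 at -0.73 (limma p 0.0497, adjusted p 0.93) and Erbb4 at -0.39 were the widest and were dim. At an unadjusted p under 0.05 Erbb3 was 1 of 14 in the lower direction, where 1.68% of all probe sets lay. Its p was above 0.05 without variance moderation and without any 1 of the exposed arrays. Erbb3 was at -0.35 without control array 1 and -1.11 without control array 2, and Erbb4 at -0.70 and -0.077.

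In the cascade from RAS to ERK, 12 of 15 measured genes had a lower mean on exposed arrays and 3 a higher one (median -0.043). None passed, as for all probe sets. A further 6 genes of this list were not matched and were not analysed here. Grb2, the adaptor that links receptors to RAS activation, read 6.49, 6.57 and 6.49 on exposed arrays, against 7.06 and 7.02 on control arrays. The Grb2 groups were tight and well apart, with a difference of -0.53 (-0.82 to -0.24, limma p 0.0042, adjusted p 0.93). Map2k1, which encodes the ERK kinase MEK1, read 7.45, 7.50 and 7.30 on exposed arrays, against 7.84 and 7.81 on control arrays, a difference of -0.41 (-0.72 to -0.095, limma p 0.019, adjusted p 0.93). At an unadjusted p under 0.05 these were 2 of 15 in the lower direction, where 1.68% of all probe sets lay. With any single array left out the differences were -0.55 to -0.51 for Grb2 and -0.45 to -0.35 for Map2k1. Every exposed array read below both control arrays for these 2 genes, so the sign could not turn in those fits. Grb2 kept an unadjusted p under 0.05 in all 12 alternatives, while Map2k1 lost it without control array 1 (p 0.056) and with the replicate number as a block (p 0.087). Both genes were named because they differed most in their list.

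Regulators of the PEA3 factors were mostly close to 0. Of 8 measured genes around Capicua and the COP1 ubiquitin ligase, which marks ETV1 protein for degradation, 2 were higher and 6 lower (median -0.016). None passed, as for all probe sets. Cic, the Capicua gene, differed by -0.020 (-0.38 to 0.34), with a sign that turned in 6 of 12 alternatives. Cop1 differed by -0.11, and both were named after their values were seen. Trib2, which encodes a pseudokinase that binds COP1, read 4.86, 4.72 and 4.83 on exposed arrays, against 5.40 and 5.13 on control arrays, a difference of -0.46 (-0.80 to -0.12, limma p 0.017, adjusted p 0.93). In the lower direction groups did not overlap for 2 of the 8, Trib2 and Atxn1l, beside 8.84% of all probe sets. Trib2 alone of the 8 had an unadjusted p under 0.05, where 1.68% of all probe sets lay in that direction. That p was above 0.05 without exposed array 2. Without control array 1 the Trib2 difference was -0.32. Atxn1l, a partner of Capicua, differed by -0.13.

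Other targets and brakes of the pathway were split in direction. Of 22 other ETS factor genes 10 were higher and 12 lower (median -0.025), with Spdef at 0.43 (0.23 without control array 2) and Elf3 at 0.38 (0.094 without exposed array 3). Of 17 other ERK pathway inhibitor genes 8 were higher and 9 lower (median -0.0091). Il17rd, an FGF signalling inhibitor, differed by 0.41 (0.27 without exposed array 3). Dusp8 differed by -0.35, or -0.020 without exposed array 3, which read 4.64 where the other 4 arrays read 5.48 to 5.80. Of 25 other immediate early genes 14 were higher and 11 lower (median 0.038). Fosb read 5.77, 5.08 and 5.08 on exposed arrays, against 4.60 and 4.96 on control arrays, a difference of 0.53 (limma adjusted p 0.93) that was 0.30 without exposed array 1. Egr4 differed by 0.38, or 0.20 without control array 1. Of 7 other genes from ERK output signatures 3 were higher and 4 lower (median -0.037), with Epha2 at 0.25 and Epha4 at -0.21. Without control array 1 Epha2 was at 0.11, and without control array 2 Epha4 was at 0.15, with the sign turned. None of these genes passed the test, as no probe set did, and none of their list medians was as far as 0.05 from 0.

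**Figure D4:**
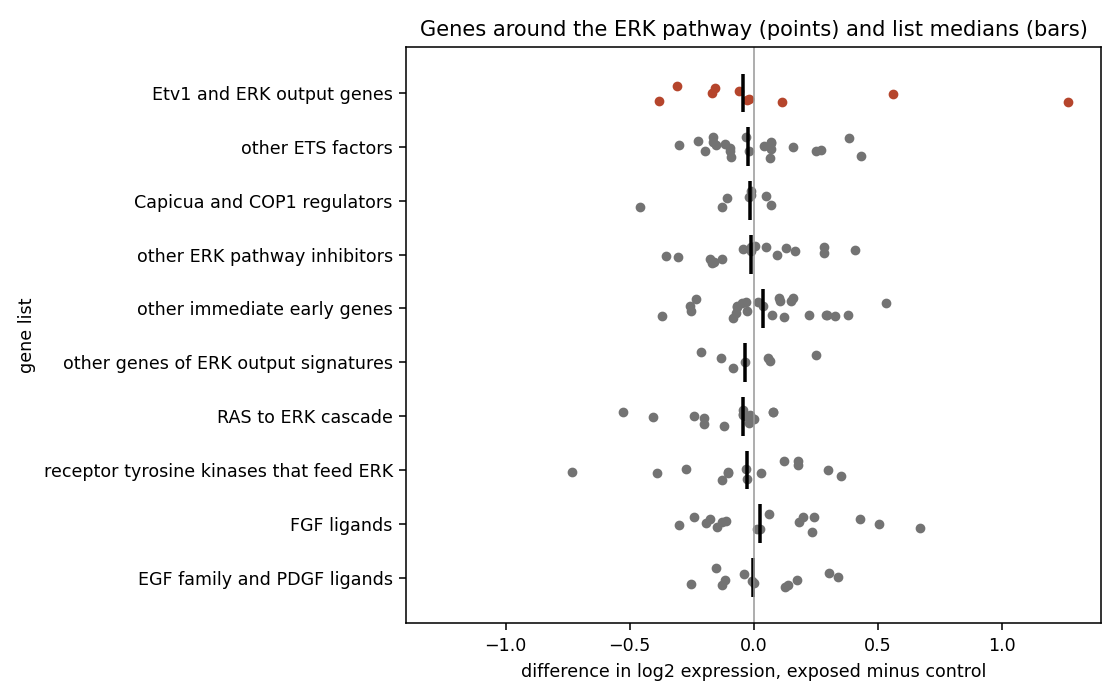
Difference in log2 expression, exposed minus control (horizontal axis), for each gene (points) of the 10 genes (red) and of 9 lists around the ERK pathway (grey); black bars are list medians and vertical scatter within a list has no meaning. Etv1, at 1.27, is the point farthest from 0, and every list median lies within 0.05 of 0.

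Marker lists of macrophages and of B and plasma cells were mostly dim, and 0 of their genes passed the test, as for all probe sets. Of 5 macrophage markers 1 was higher and 4 lower, at mean levels over the list of 3.93, 3.95 and 4.00 on exposed arrays, against 3.94 and 4.21 on control arrays. Cd14 differed by -0.32 (-0.13 without exposed array 1) and Adgre1 by -0.20 (0.068 without control array 2). Of 7 B and plasma cell markers 5 were higher and 2 lower, at mean levels of 3.52, 3.43 and 3.76 on exposed arrays, against 3.47 and 3.64 on control arrays. Ms4a1 at 0.35 and Tnfrsf17 at 0.25, both dim and named after their values were seen, did not overlap between groups. Over all probe sets 8.5% did not overlap in that higher direction. The 2 lower B and plasma cell markers, Cd79b and Mzb1, were each at -0.37, with Cd79b at 0.23 without control array 2 and Mzb1 at -0.029 without control array 1. The preadipocyte and fibroblast list had mean levels of 9.07, 9.13 and 9.03 on exposed arrays, against 9.19 and 9.19 on control arrays, with Dlk1 at -0.28 and Fn1 at -0.23, or -0.041 for Fn1 without exposed array 3. The part of this shift in the values of Grb2, Map2k1 and Egr1 was not tested. In the adipocyte list Retn differed by 0.46 (limma p 0.031, adjusted p 0.93), with an unadjusted p under 0.05 in 6 of 12 alternatives. Retn was 1 of 12 at that threshold in the higher direction, where 1.82% of all probe sets lay. Plin1 differed by -0.25, or -0.0025 without exposed array 3, which read 9.08 where the other 4 arrays read 9.77 to 9.90.

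**Figure D5:**
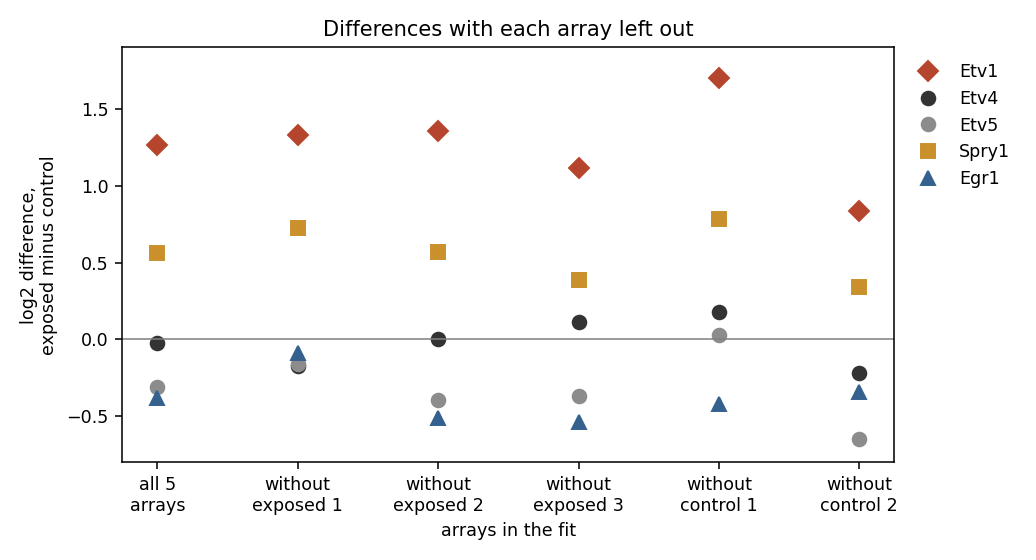
Difference in log2 expression, exposed minus control (vertical axis), of Etv1, Etv4, Etv5, Spry1 and Egr1 with all 5 arrays and with each array left out (horizontal axis). Etv1 stays between 0.83 and 1.70 and Spry1 between 0.34 and 0.78, Etv4 and Etv5 lie on both sides of 0, and Egr1 comes to -0.090 without exposed array 1.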

How the data were processed

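The deposited table holds 1 log2 expression value per probe set and array, made by the authors with RMA (background correction, quantile normalization, probe summary) and Partek, per the submitters' processing notes. Their versions and the build behind the annotation are not given in the sources used here. It has 22206 probe sets with values from 1.20 to 13.2 and no detection calls, and 27.2% of probe sets hold the same value on at least 2 arrays. The platform annotation gave 1 symbol to 19572 probe sets, several to 0 and none to 2634.

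Groups came from the sample descriptions. The groups were compared over all probe sets by limma 3.58.1 under R 4.3.3 (group only, two-sided, Benjamini-Hochberg, call at an adjusted p under 0.05), with 3 residual and 3.17 prior degrees of freedom, after a test on simulated data. The number of arrays limits precision; the median half-width of the 95% intervals was 0.41. Differences are exposed minus control. The members and gene lists were chosen with earlier results of these data known, and the promoter motifs after the values were seen. All 10 genes were named; from each other list the counts and the 2 genes of largest absolute difference were named, and the 5 genes most like Etv1, without predicted genes. Adipoq, Cic, Cop1, Ms4a1 and Tnfrsf17 were named outside this rule. Python 3.11.15 was used for the rest.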

Additional observations from a re-analysis of the deposited data

How the results depend on the processing

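The Etv1 difference was positive under all 12 alternatives, from 0.83 without control array 2 to 1.70 without control array 1. Every exposed array read above both control arrays for Etv1, so leaving out 1 array could not turn the sign. Settings that change only the spread estimate or the probe sets tested leave the difference as it was. The kept sign is therefore no independent support. The count of called probe sets was 0 under each of the 12. The 776 probe sets at an unadjusted p under 0.05 became 362 when those below the median level were left out and fewer were tested. Leaving out single arrays gave 760 to 1378, of which 1378 came without control array 1. The median of the 9 genes other than Etv1 lay between -0.16 and -0.010 with 1 array left out. Of the 4 genes whose groups did not overlap, 2 remained when arrays were centred again and 1 when quantile normalization was repeated. Of the 10 genes 5 kept their sign throughout, including the 4 whose groups did not overlap, which a left-out array could not turn. With 1 array left out, ranges that crossed 0 were -0.22 to 0.18 for Etv4, -0.65 to 0.030 for Etv5, -0.15 to 0.093 for Dusp6, -0.032 to 0.26 for Dusp4 and -0.080 to 0.036 for Spry4. Of 36 other genes named with a difference 31 kept their sign; Adgre1 (-0.46 to 0.068), Adipoq (-0.094 to 0.075), Cd79b (-0.96 to 0.23), Cic (-0.18 to 0.13) and Epha4 (-0.57 to 0.15) did not. Cic was also at 0.020 after repeated quantile normalization, 0.0075 with array weights and 0.0017 with the replicate block. A fit without 1 control array has a single control and takes its spread from the exposed arrays. The replicate number entered as a block gave 789 probe sets at an unadjusted p under 0.05, 0 called, an Etv1 difference of 1.12 and an Etv4 difference of 0.11, with the sign turned. Same-numbered arrays did not deviate together (correlations -0.014 and -0.032), so the numbers were not taken as pairs. The cause of the shifts between arrays was not tested. Dim probe sets such as that of Dusp6 limit what can be seen, since RMA compresses low signals. The Etv1 difference also rests on dim control readings, 4.58 and 3.72, which lay below the array medians.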
